A study of Mus musculus with 8 samples.

Results

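The genes of glycolysis and of pyruvate and lactate metabolism were measured in mouse ovaries with a conditional knockout of the receptors for insulin and insulin-like growth factor 1. The set held 34 genes of the 41591 gene IDs in the count tables, chosen by symbol, from the glucose transporters to the mitochondrial pyruvate carrier. RNA sequencing was done on whole ovaries of 8 female mice about 3 weeks old, with the strain given as C57BL/6. The 4 DKO mice are labelled as an Insr-Igf1r double knockout, which the study describes as conditional. Insr encodes the receptor for insulin, and Igf1r the receptor for insulin-like growth factor 1. The 4 Controls, from the same litters, were wild-type and positive for Pgr-Cre, a Cre recombinase driven by the gene of the progesterone receptor. The labels do not name the Cre driver of the DKO mice. Each mouse, DKO or Control, was superovulated with equine chorionic gonadotropin (4 IU), and after 48 h with its human form (hCG, 5 IU), a stand-in for the surge of luteinizing hormone. Ovaries were taken 12 h after hCG, close to ovulation.

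In RNA from whole ovaries, fewer cells of a type cannot be told apart from less RNA per cell. In DKO ovaries Insr averaged 126 ± 16.8 CPM (counts per 1000000 counts of a library) against 155 ± 10.3 in Controls, and Igf1r 214 ± 22.4 against 236 ± 28.6 (mean ± SD, n = 4 each), so the counts over these whole genes check the genotype labels weakly. The libraries held 33145056 to 39257648 counts in DKO and 34785650 to 37592984 counts in Controls, and every marker list of the ovary was detected. DKO 1 and DKO 2 stood apart. The ribosomal RNA gene Rn18s-rs5 took 2.45% and 2.32% of their counts, against 0.113% to 0.263% in the other 6 libraries. Summed markers of cumulus cells (Has2, Ptx3, Tnfaip6 and Ptgs2) were at 12.3 and 58.6 CPM in DKO 1 and DKO 2, 228 and 352 CPM in DKO 3 and DKO 4, and 190 to 574 CPM in Controls. The beta-globin genes Hbb-bs and Hbb-bt were at 0.61 and 1.1 CPM and at 0.18 and 0.09 CPM in DKO 1 and DKO 2, against 105 to 442 CPM and 22.1 to 86.0 CPM in the other 6 libraries. The alpha-globin gene Hba-a1 was not low there, at 103 and 248.5 CPM, against 73.6 to 171 CPM in the other 6. A difference in genetic background between these libraries was not tested. Summed markers of oocytes (8 genes) were at 128 and 154 CPM in DKO 1 and DKO 2, 438 and 271 CPM in DKO 3 and DKO 4, and 123 CPM in Control 1 against 334 to 447 CPM in the other Controls. The oviduct marker Ovgp1 was at 724 CPM in DKO 2 and 1150 CPM in Control 1, against 2.51 to 23.8 CPM in the other 6 libraries. DKO 1, DKO 2 and Control 1 bear lower numbers in their titles than DKO 3, DKO 4 and Controls 2 to 4, the 5 later-numbered libraries. The labels do not say what these numbers mean.

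Glycolysis turns glucose into pyruvate in the cytosol, where hexokinase, phosphofructokinase and pyruvate kinase catalyse its controlled steps. Lactate dehydrogenase converts pyruvate and lactate into each other. Pyruvate enters mitochondria through the mitochondrial pyruvate carrier, to be oxidised by pyruvate dehydrogenase or carboxylated by pyruvate carboxylase. In the ovary, granulosa and cumulus cells metabolise glucose strongly and pass pyruvate to the oocyte, which uses little glucose itself. Insulin is known in other tissues to raise glucose uptake and to lower the pyruvate dehydrogenase kinase gene Pdk4.

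In DKO ovaries the gene of pyruvate carboxylase, Pcx, rose 1.82-fold and was the only member to pass the test. The genes of phosphoglycerate mutase (Pgam1), glucose-6-phosphate isomerase (Gpi1), the muscle-type phosphofructokinase (Pfkm) and the kinase Pdk2 lay higher in every DKO ovary than in any Control, without passing. The glucose transporter gene Slc2a1 and Pdk4 had the lowest fold changes, 0.60 and 0.48, and did not pass either. All 34 members passed the filter on low counts. The test was edgeR's quasi-likelihood test over 16870 genes, with adjusted p values under 0.05 called. Of the 34 members 1 was called, against 1.26% of all genes tested. Higher calls made up 1 of 34 members (2.94%), against 0.759% of all genes tested, and lower calls 0 members, against 0.498% of all genes. DESeq2 called 5 members higher (against 3.77% of all genes) and 1 lower (against 2.79%). At an unadjusted p under 0.05, 8 members were higher (23.5%, against 8.43% of all genes) and 2 lower (5.88%, against 6.98%). The groups did not overlap in 5 of 34 members, against 9.24% of all genes. Every DKO ovary lay above every Control in all 5 (14.7%, against 5.70% of all genes), and below in 0 members (against 3.54%). The members' median log2 fold change, DKO over Control, was 0.17, beside -0.02 over all genes tested, and 22 of 34 were above 0.

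These summaries depended on single libraries. Leaving out 1 library, 0 members were called without DKO 1, DKO 3, DKO 4, Control 2 or Control 4, 1 without DKO 2, and 2 without Control 1 or Control 3. Over all genes the calls numbered 78, 66, 9 and 113 without DKO 1 to DKO 4 in turn, and 258, 2, 506 and 27 without Control 1 to Control 4, against 212 with all libraries. The members' median was 0.02 without DKO 1 and DKO 2 together, and 0.04 among the 5 later-numbered libraries alone.

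**Figure D1:**
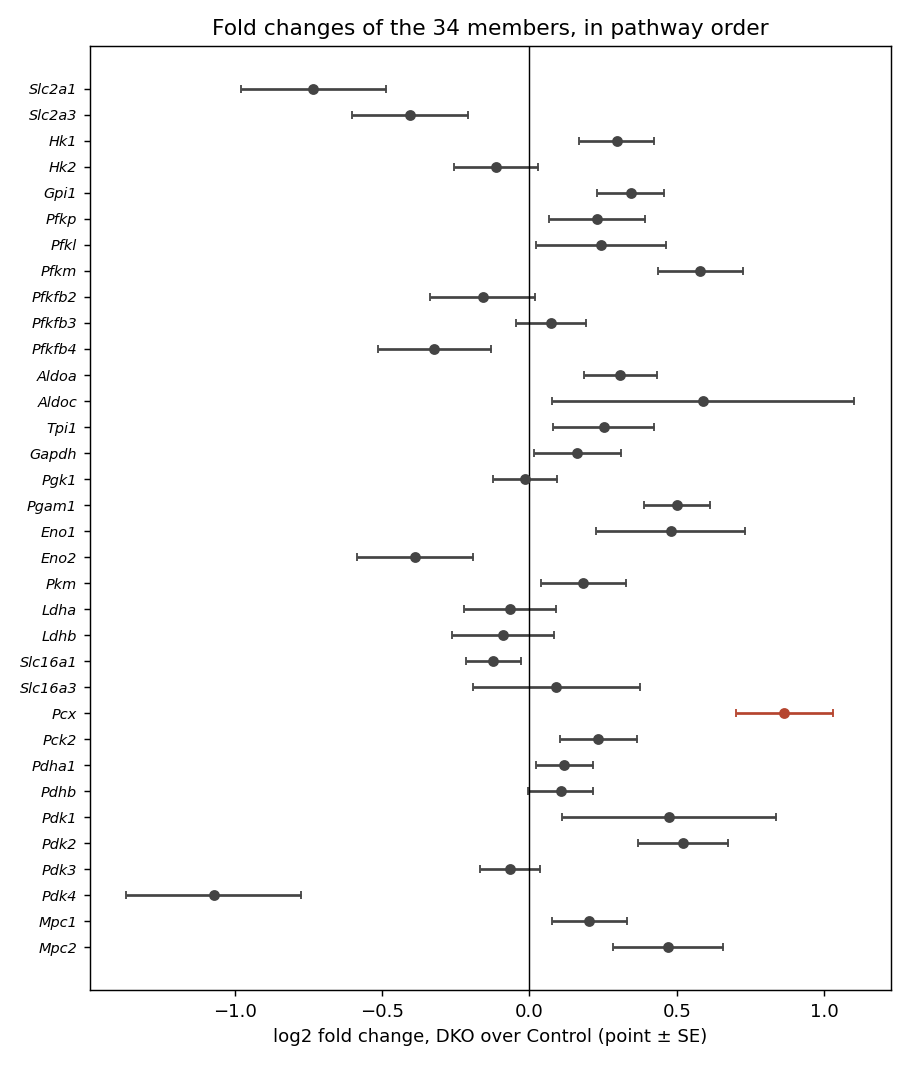
Log2 fold change, DKO over Control, of the 34 members in pathway order from glucose uptake to the pyruvate carrier. Points are edgeR estimates and bars their SE (n = 4 each); Pcx, in red at 0.87 ± 0.16, passed an adjusted p of 0.05, and Pdk4 lies lowest at -1.07 ± 0.30.

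Levels of different members were compared per exon length, as FPKM (counts scaled to library size and exon length, computed here). The glyceraldehyde-3-phosphate dehydrogenase gene Gapdh averaged 364.5 ± 27.9 FPKM in DKO ovaries and 326 ± 67.1 in Controls (mean ± SD, n = 4 each). The aldolase gene Aldoa was at 322 ± 17.8 and 260.2 ± 38.6 FPKM, the pyruvate kinase gene Pkm at 296.5 ± 46.9 and 261.3 ± 31.6, and the lactate dehydrogenase gene Ldha at 286.5 ± 54.2 and 299.9 ± 42.0, DKO before Control in each. The order of these 4 levels differed between groups, and neighbouring means in it were closer than the larger of their SDs, except Gapdh and Aldoa in DKO ovaries. Far below came Slc2a3, Eno2 and Pfkfb2, at 2.85 ± 0.73, 2.52 ± 0.48 and 4.73 ± 0.87 FPKM in DKO ovaries and 3.78 ± 0.50, 3.30 ± 0.63 and 5.28 ± 1.21 FPKM in Controls. In Controls Aldoc averaged below Pfkfb2 too, at 5.02 ± 4.47 FPKM. Members together took 0.674%, 0.688%, 0.576% and 0.564% of all counts in DKO 1 to DKO 4, and 0.569%, 0.542%, 0.610% and 0.495% in Control 1 to Control 4.

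Several glycolytic genes have near-identical copies that bear on these levels. The share of a member's 50-base stretches that also occur in transcripts of other genes was 68.0% for Pgk1, 58.4% for Gapdh, 49.5% for Eno1 and 41.5% for Pgam1. The gene sharing most with Eno1 was the protein-coding Eno1b (48.4%), and for the other 3 it was a processed pseudogene. It was 0% for Pcx, Pdk1, Pdk2, Pdk3 and Mpc2, and 1.41% for Pdk4. The count tables list the exons of Hk2 and Eno1 on a chromosome and on a second sequence of the assembly, so their levels are not compared with other genes here.

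Promoter sequences are shown for the called gene Pcx, for Pgam1 and Pdk2 as members with no overlap between groups, for Slc2a1 as the transporter gene with the lower fold change, and for Ldha as the promoter with the most matches. They are RefSeq promoters of GRCm38.p6, running from 250 bases before to 50 bases after a transcript start, 5′ to 3′ on the gene's strand. Capitals mark ACGTG or its reverse complement CACGT, the core letters bound by hypoxia-inducible factors, which are known regulators of glycolytic genes. The forkhead motif GTAAACA and its reverse complement TGTTTAC were searched as well and occur in none of the sequences shown.
Pcx, chr19:4510222-4510521, plus strand: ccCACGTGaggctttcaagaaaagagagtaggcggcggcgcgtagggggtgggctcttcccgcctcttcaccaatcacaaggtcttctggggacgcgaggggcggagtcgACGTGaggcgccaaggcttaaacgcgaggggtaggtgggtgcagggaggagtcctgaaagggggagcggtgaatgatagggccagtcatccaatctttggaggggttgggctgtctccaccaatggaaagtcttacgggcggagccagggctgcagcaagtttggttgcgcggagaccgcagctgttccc
Pgam1, chr19:41911621-41911920, plus strand: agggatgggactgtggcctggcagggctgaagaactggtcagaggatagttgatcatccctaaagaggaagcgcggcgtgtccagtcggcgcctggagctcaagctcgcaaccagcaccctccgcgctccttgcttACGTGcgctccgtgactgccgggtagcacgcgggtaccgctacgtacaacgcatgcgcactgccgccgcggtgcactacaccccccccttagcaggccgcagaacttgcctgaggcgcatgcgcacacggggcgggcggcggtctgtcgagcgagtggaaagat
Pdk2, chr11:95041322-95041621, minus strand: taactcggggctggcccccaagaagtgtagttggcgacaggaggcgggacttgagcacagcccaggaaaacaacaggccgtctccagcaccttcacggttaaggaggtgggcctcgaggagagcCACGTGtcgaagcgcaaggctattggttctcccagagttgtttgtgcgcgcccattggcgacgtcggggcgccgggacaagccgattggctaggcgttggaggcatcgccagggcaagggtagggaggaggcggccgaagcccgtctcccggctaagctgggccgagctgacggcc
Slc2a1, chr4:119108495-119108794, plus strand: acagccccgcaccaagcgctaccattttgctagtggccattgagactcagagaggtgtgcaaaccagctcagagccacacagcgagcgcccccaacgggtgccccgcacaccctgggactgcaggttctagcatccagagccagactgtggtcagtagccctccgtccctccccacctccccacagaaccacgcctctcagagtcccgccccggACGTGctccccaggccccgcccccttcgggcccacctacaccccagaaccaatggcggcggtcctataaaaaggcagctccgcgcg
Ldha, chr7:46845554-46845853, plus strand: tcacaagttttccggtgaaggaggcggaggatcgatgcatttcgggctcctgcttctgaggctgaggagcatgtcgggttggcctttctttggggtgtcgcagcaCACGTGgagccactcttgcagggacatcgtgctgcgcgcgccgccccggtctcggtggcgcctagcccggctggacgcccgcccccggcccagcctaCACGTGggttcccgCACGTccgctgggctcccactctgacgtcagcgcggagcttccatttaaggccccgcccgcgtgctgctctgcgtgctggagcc
The Pcx, Pdk2 and Ldha sequences shown are the first of 2 promoter windows of each gene, and the second held no match. Every sequence shown holds ACGTG on either strand, which only 19 of the 33 members with a window do. Of members not shown, Gpi1 and Pfkm did not overlap between groups either. Pfkm had a match, while Gpi1 and Pdk4, the member with the lowest fold change, had none. Windows were found for 33 of the 34 members, 51 windows in all. ACGTG on either strand occurred in 45.1% of the members' windows, against 19.6% of all 32851 windows, and 7 of the 23 windows with it held the E-box CACGTG, which contains it. Windows of a gene can overlap, so a site can be counted more than once, as in Aldoa. GTAAACA occurred in 1.96% of the members' windows, against 3.65% of all. The members' windows were richer in G and C, with a median of 61.3% against 52.7% over all windows. These are matches of letters only.

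Glucose uptake came first in the pathway. Slc2a1 (gene ID 20525, chr4:119108745-119137330 in GRCm38.p5), the basal glucose transporter GLUT1, was at 46.4, 73.9, 81.1 and 101 CPM in DKO 1 to DKO 4, and at 82.9, 126, 149 and 144 CPM in Control 1 to Control 4. Only DKO 4 exceeded a Control, and that Control was Control 1. The summed cumulus markers were at 12.3, 58.6, 228 and 352 CPM in DKO 1 to DKO 4 and at 190, 350, 500 and 574 CPM in Control 1 to Control 4, the order of Slc2a1 within DKO ovaries and, but for Controls 3 and 4, within Controls. Their part in the Slc2a1 values was not tested. The means were 75.5 ± 22.5 and 126 ± 30.2 CPM (log2 fold change -0.73 ± 0.25, SE; adjusted p = 0.187). Slc2a3, the high-affinity transporter GLUT3, had 8.86 to 16.8 CPM in DKO ovaries and 16.1 to 21.3 CPM in Controls, with a log2 fold change of -0.41 ± 0.20 (adjusted p = 0.366). Both transporter genes were lowest in DKO 1.

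Hexokinases trap glucose by phosphorylation. Hk1, the broadly expressed form (gene ID 15275, chr10:62268855-62379916), was at 126, 133, 93.6 and 105 CPM in DKO 1 to DKO 4 and at 96.9, 92.0, 81.3 and 102 CPM in Control 1 to Control 4. The DKO values above every Control were those of DKO 1, DKO 2 and DKO 4 (log2 fold change 0.30 ± 0.13, adjusted p = 0.300). Hk2, the form regulated by insulin in muscle and fat, was at 77.0, 76.9, 88.5 and 98.8 CPM in DKO ovaries and at 101, 78.7, 112 and 78.0 CPM in Controls. The groups overlapped, with a log2 fold change of -0.11 ± 0.14 (adjusted p = 0.771), which was above 0 without DKO 1 and DKO 2 (0.04).

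The next step, from glucose 6-phosphate to fructose 6-phosphate, belongs to Gpi1 (gene ID 14751, chr7:34201327-34230336). Gpi1 was at 389, 423, 344 and 336 CPM in DKO 1 to DKO 4 and at 288, 281, 330 and 277 CPM in Control 1 to Control 4. The groups did not overlap, by the narrow gap between DKO 4 and Control 3 (log2 fold change 0.34 ± 0.11, adjusted p = 0.177). DESeq2 called Gpi1 higher (adjusted p = 0.0381).

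Phosphofructokinase commits the sugar to glycolysis and has a muscle (Pfkm), a liver (Pfkl) and a platelet (Pfkp) form. Pfkm (gene ID 18642, chr15:98092589-98132447) was at 78.7, 61.6, 60.4 and 51.4 CPM in DKO 1 to DKO 4 and at 48.3, 44.7, 37.3 and 38.3 CPM in Control 1 to Control 4. Every DKO ovary lay above every Control, with means of 63.0 ± 11.4 and 42.1 ± 5.24 CPM (log2 fold change 0.58 ± 0.14, adjusted p = 0.0872). DESeq2 called Pfkm higher (adjusted p = 0.0109), and 282 bases of its exons overlap another gene on the same strand. Pfkl was at 173, 181, 98.5 and 106 CPM in DKO ovaries and at 150, 118, 106 and 98.1 CPM in Controls (0.24 ± 0.22, adjusted p = 0.665). Pfkp was at 129, 161, 92.2 and 105 CPM in DKO ovaries and at 104, 104, 115 and 92.0 CPM in Controls (0.23 ± 0.16, adjusted p = 0.566). In both genes DKO 1 and DKO 2 exceeded the other 6 libraries, and without them the log2 fold changes were -0.19 and -0.06.

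Bifunctional enzymes of the Pfkfb family set the level of fructose 2,6-bisphosphate, an activator of phosphofructokinase. Pfkfb3, the form with the strongest kinase activity, was at 88.0, 94.4, 109 and 112 CPM in DKO ovaries and at 84.0, 92.9, 113 and 93.1 CPM in Controls. The values interleaved (0.07 ± 0.12, adjusted p = 0.823). Pfkfb2 ranged from 37.1 to 54.4 CPM in DKO ovaries and from 41.2 to 66.8 CPM in Controls, and Pfkfb4 from 25.0 to 38.2 and from 31.3 to 55.9 CPM (log2 fold changes -0.16 ± 0.18 and -0.32 ± 0.19, adjusted p = 0.737 and 0.471).

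In the lower part of glycolysis Pgam1 was the member that separated the groups. Pgam1 (gene ID 18648, chr19:41911871-41918665), which moves the phosphate of phosphoglycerate, was at 136, 128, 118 and 119 CPM in DKO 1 to DKO 4 and at 77.3, 90.0, 105 and 81.4 CPM in Control 1 to Control 4. The means were 125 ± 8.27 and 88.5 ± 12.4 CPM (log2 fold change 0.50 ± 0.11, adjusted p = 0.0658). It was called without Control 3, its highest Control (adjusted p = 0.0179), and by DESeq2 (0.00178). Aldoa, which splits fructose 1,6-bisphosphate, was at 1061, 1077, 981 and 965 CPM in DKO ovaries and at 723, 797, 1001 and 776 CPM in Controls (0.31 ± 0.13, adjusted p = 0.268). Control 3 alone reached into the DKO range.

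Aldoc, the brain-type aldolase, had 21.0, 30.3, 18.2 and 17.4 CPM in DKO ovaries and 33.5, 7.55, 10.2 and 6.41 CPM in Controls. Control 1 lay above all 7 other libraries, and DKO 2 was next. The oviduct marker Ovgp1 was at 724 CPM in DKO 2 and 1150 CPM in Control 1, against 2.51 to 2.90 CPM in the other DKO ovaries and 4.04 to 23.8 CPM in the other Controls, and its part in the Aldoc values was not tested. The log2 fold change was 0.59 ± 0.51 (adjusted p = 0.653), and 1.45 without Control 1, where the gene was called (adjusted p = 0.0313).

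Gapdh was at 812, 776, 677 and 740 CPM in DKO ovaries and at 575, 624, 876 and 610 CPM in Controls (log2 fold change 0.16 ± 0.15, adjusted p = 0.665). Its highest library was Control 3, above all DKO ovaries, and the other Controls lay below them. Pkm, whose enzyme makes pyruvate, was at 1010, 955, 710 and 805 CPM in DKO ovaries and at 850, 680, 843 and 692 CPM in Controls (0.18 ± 0.14, adjusted p = 0.611). Pgk1 (phosphoglycerate kinase) had a log2 fold change of -0.02 ± 0.11, Tpi1 (triose-phosphate isomerase) 0.25 ± 0.17, and the enolase genes Eno1 and Eno2, Eno2 being the neuronal form, 0.48 ± 0.25 and -0.39 ± 0.20. Their adjusted p values ran from 0.388 to 0.963. Tpi1 and Eno1 were at 327 to 524 and 82.6 to 165 CPM in DKO ovaries, and at 321 to 389 and 72.5 to 102 CPM in Controls.

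Lactate dehydrogenase did not differ between groups by more than its spread. Ldha (gene ID 16828, chr7:46845804-46855627), the subunit that favours lactate formation, was at 632, 652, 444 and 484 CPM in DKO 1 to DKO 4 and at 533, 539.8, 700.4 and 542 CPM in Control 1 to Control 4. DKO 1 and DKO 2 lay above 3 of the 4 Controls, and DKO 3 and DKO 4 below all 4 (log2 fold change -0.07 ± 0.16, adjusted p = 0.886). Ldhb, the subunit that favours lactate use, was at 197.5, 167.3, 283.5 and 227.9 CPM in DKO ovaries and at 187, 268, 229 and 248 CPM in Controls (-0.09 ± 0.17, adjusted p = 0.856). The signs of both changed in single fits, from -0.15 to 0.04 and from -0.23 to 0.03 when 1 library was left out.

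Monocarboxylate transporters carry lactate and pyruvate across the cell membrane. Slc16a1 (MCT1) was at 91.3, 87.2, 92.7 and 106 CPM in DKO ovaries and at 104, 101, 96.1 and 109 CPM in Controls (-0.12 ± 0.09, adjusted p = 0.591). Slc16a3 (MCT4, the form of lactate-exporting cells) was at 66.7, 90.2, 33.9 and 39.4 CPM in DKO ovaries and at 63.2, 52.7, 50.2 and 49.8 CPM in Controls. The 4 Controls lay between the 2 pairs of DKO ovaries, so the log2 fold change of 0.09 ± 0.28 (adjusted p = 0.911) became -0.54 without DKO 1 and DKO 2, and -0.20 without DKO 2 alone.

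Pyruvate carboxylase makes oxaloacetate, which feeds the tricarboxylic acid cycle and the export of citrate for lipid synthesis. Pcx (gene ID 18563, chr19:4510472-4621752) was at 122, 111, 173 and 179 CPM in DKO 1 to DKO 4 and at 80.9, 88.5, 69.6 and 81.7 CPM in Control 1 to Control 4. Every DKO ovary lay above every Control, and DKO 3 and DKO 4 lay above DKO 1 and DKO 2. The means were 146 ± 34.8 and 80.2 ± 7.85 CPM (log2 fold change 0.87 ± 0.16, adjusted p = 0.0425). Summed markers of luteal and steroidogenic cells (Star, Cyp11a1, Hsd3b1 and Lhcgr) were at 14400, 13300, 17900 and 17500 CPM in DKO 1 to DKO 4 and at 7080 to 13000 CPM in Controls. The sum too did not overlap between groups and was higher in DKO 3 and DKO 4 than in DKO 1 and DKO 2. Singly, Star overlapped between groups. It was at 821, 907, 3267 and 3396 CPM in DKO 1 to DKO 4 and at 1016 to 2521 CPM in Controls. Cyp11a1, Hsd3b1 and Lhcgr did not overlap. Of these only Cyp11a1 was higher in both DKO 3 and DKO 4 than in DKO 1 and DKO 2. The part of these markers in the Pcx result was not tested. The call ended with the replicate number as a block (0.84, adjusted p = 0.0515). It held in the other 11 of 12 analyses with another scaling, filter, test, block or set of libraries, among them the 5 later-numbered libraries alone (1.16 ± 0.15, adjusted p = 0.0220), and Pcx was called without DKO 1 and DKO 2 together (1.15, adjusted p = 0.0328). Leaving out 1 library, it ended without DKO 1, DKO 3 or DKO 4 (adjusted p = 0.0648, 0.130 and 0.0716) and without Control 1, 2, 3 or 4 (0.0565, 0.138, 0.0544 and 0.129). The log2 fold change was 0.75 to 0.99 over the 8 fits with 1 library left out.

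**Figure D2:**
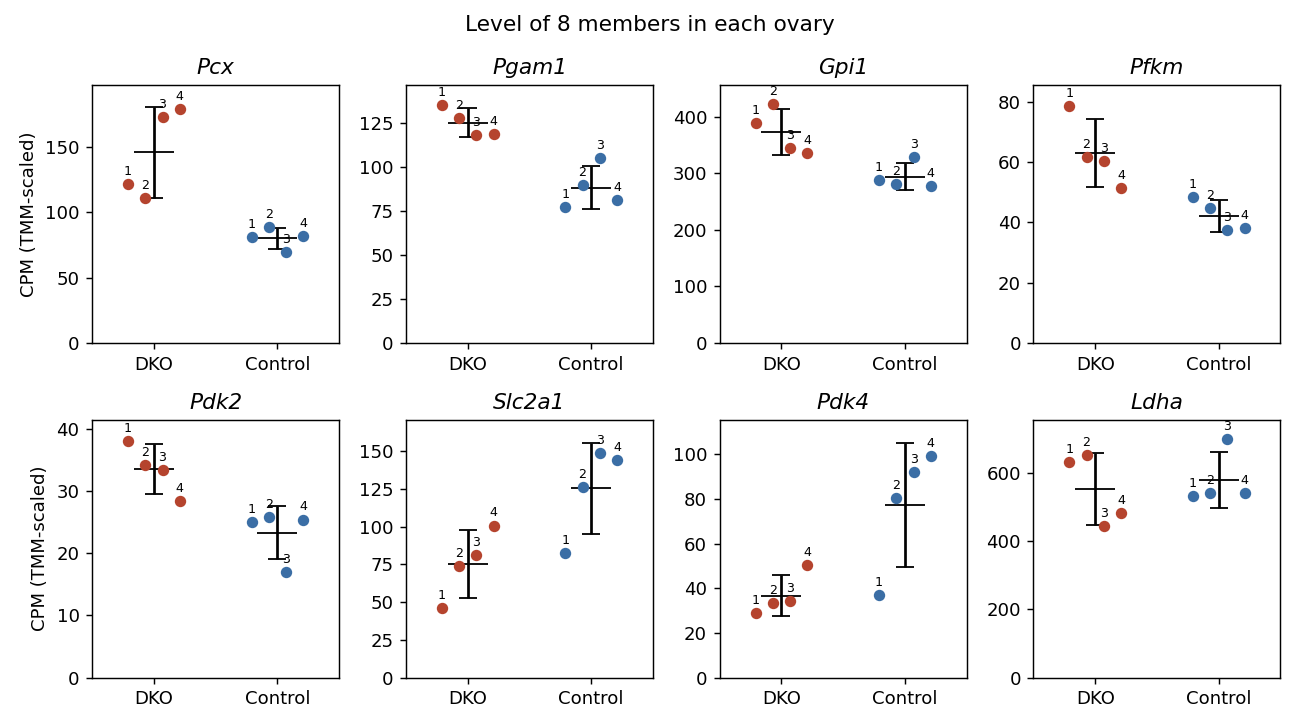
CPM of 8 members in each ovary, DKO left and Control right, with replicate numbers at the points and mean ± SD as bars (n = 4 each, vertical axes from 0). Pcx lies between 111 and 179 CPM in DKO ovaries and between 69.6 and 88.5 CPM in Controls, while the groups overlap in Slc2a1, Pdk4 and Ldha.

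Pck2, the mitochondrial phosphoenolpyruvate carboxykinase, ranged from 69.9 to 93.8 CPM in DKO ovaries and from 57.8 to 81.2 CPM in Controls (0.23 ± 0.13, adjusted p = 0.438). The pyruvate dehydrogenase subunits Pdha1 and Pdhb had log2 fold changes of 0.12 ± 0.10 and 0.11 ± 0.11 (adjusted p = 0.626 and 0.708). Pdha1 was at 128 to 150 CPM in DKO ovaries and 117 to 138 CPM in Controls, and Pdhb at 91.5 to 110 and 82.5 to 111 CPM.

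Pyruvate dehydrogenase kinases switch off the oxidation of pyruvate, and their 4 genes differed in direction. Pdk4 (gene ID 27273, chr6:5483351-5496278), the form induced by fasting, was at 28.9, 33.5, 34.3 and 50.3 CPM in DKO 1 to DKO 4 and at 37.1, 80.7, 92.0 and 99.4 CPM in Control 1 to Control 4. Control 1 fell within the DKO range, and the other 3 Controls lay above all DKO ovaries. The summed cumulus markers given beside Slc2a1 had the same library order as Pdk4 within each group. Singly, only Ptgs2 had this order, at 357 CPM in Control 3 and 449.4 CPM in Control 4. Has2 (16.42 and 14.31 CPM), Ptx3 (33.96 and 17.97 CPM) and Tnfaip6 (92.34 and 92.24 CPM) were higher in Control 3 than in Control 4. The part of these markers in the Pdk4 values was not tested. The means were 36.8 ± 9.36 and 77.3 ± 27.9 CPM (log2 fold change -1.07 ± 0.30, adjusted p = 0.130). Pdk4 was called lower without Control 1 (-1.29, adjusted p = 0.0226), by DESeq2 (0.00649) and, just under the threshold, among the later-numbered libraries (-1.08 ± 0.19, adjusted p = 0.049999).

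Pdk2, a broadly expressed kinase (gene ID 18604, chr11:95026258-95041371), was at 38.1, 34.1, 33.4 and 28.4 CPM in DKO ovaries and at 25.0, 25.8, 17.0 and 25.4 CPM in Controls. The groups did not overlap (log2 fold change 0.52 ± 0.15, adjusted p = 0.139), and DESeq2 called it higher (0.0430). Pdk1, the kinase known as a target of hypoxia-inducible factors, was at 63.2, 68.4, 31.0 and 24.0 CPM in DKO ovaries and at 49.0, 34.2, 25.6 and 25.6 CPM in Controls. DKO 1 and DKO 2 were the highest libraries (0.47 ± 0.36, adjusted p = 0.601), and without them the log2 fold change was -0.27. Pdk3 stayed between 36.8 and 42.2 CPM in DKO ovaries and between 38.8 and 48.1 CPM in Controls (-0.07 ± 0.10, adjusted p = 0.812).

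The mitochondrial pyruvate carrier is built of both Mpc gene products. Mpc2 was at 33.99, 43.9, 50.1 and 44.7 CPM in DKO 1 to DKO 4 and at 26.8, 28.3, 43.6 and 26.0 CPM in Control 1 to Control 4 (0.47 ± 0.19, adjusted p = 0.255). Control 3 lay in the DKO range, and without it Mpc2 was called higher (0.68, adjusted p = 0.0407). Mpc1 was at 24.9, 23.5, 22.2 and 23.4 CPM in DKO ovaries and at 23.0, 20.2, 22.2 and 16.3 CPM in Controls (0.20 ± 0.13, adjusted p = 0.504).

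Shares of isoenzymes within a step were taken from FPKM and are given without a test. Pdk4 made up 15.4%, 17.9%, 21.5% and 29.0% of the summed kinase FPKM in DKO 1 to DKO 4, and 22.6%, 39.3%, 46.1% and 43.2% in Control 1 to Control 4. Pdk2 made up 26.8%, 24.0%, 27.6% and 21.5% in DKO ovaries and 20.03%, 16.6%, 11.2% and 14.5% in Controls, with no overlap. The sum over the 4 kinases was 51.2 ± 3.85 FPKM in DKO ovaries and 57.9 ± 7.83 FPKM in Controls (mean ± SD, n = 4 each), closer between groups than Pdk4 itself, at 10.65 ± 2.71 and 22.4 ± 8.07 FPKM. Ldha held 68.4%, 72.5%, 51.4% and 58.9% of lactate dehydrogenase FPKM in DKO ovaries and 65.9%, 57.6%, 67.4% and 59.6% in Controls. Its mean share was 62.8% ± 9.48 in DKO ovaries and 62.6% ± 4.75 in Controls. Pfkl was the largest phosphofructokinase per length in every library, at 49.4% to 58.9% in DKO ovaries and 56.2% to 62.1% in Controls, and Pfkm held 22.6% to 34.3% and 22.3% to 24.9%.

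**Figure D3:**
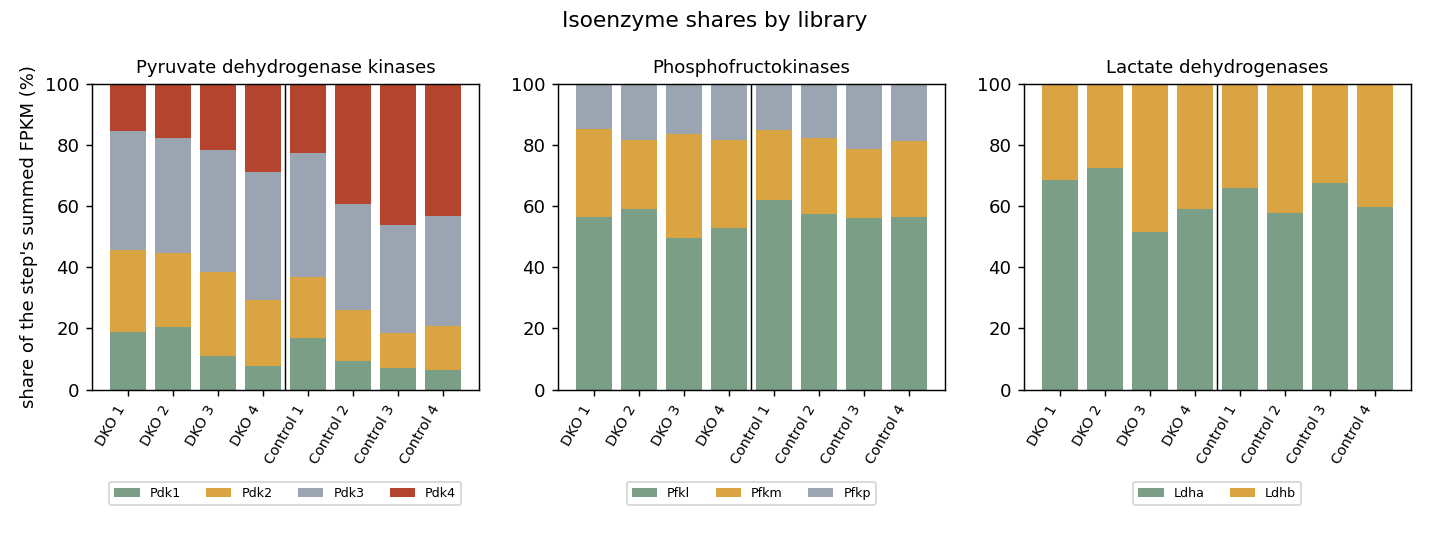
Share of each isoenzyme in the summed FPKM of its step (vertical axis, %) in the 8 libraries, DKO left of the line and Control right. Pdk4 makes up 15.4% to 29.0% of the kinases in DKO ovaries and 22.6% to 46.1% in Controls, and Pfkl is the largest phosphofructokinase in all 8.

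The DKO ovaries differed among themselves in a pattern that ran through much of glycolysis. DKO 1 and DKO 2 both lay above the other 6 libraries in 15 of 34 members (44.1%), against 10.96% of all genes tested. The 15 were Hk1, Gpi1, Pfkp, Pfkl, Pfkm, Aldoa, Tpi1, Pgam1, Eno1, Pkm, Slc16a3, Pck2, Pdk1, Pdk2 and Mpc1. Control 1, whose title number is also low, was the highest Control in Pfkl, Pfkm, Pkm, Slc16a3, Pdk1 and Mpc1. It was level with Control 3 in Eno1, the lowest Control in Aldoa and Pgam1, and between other Controls in the rest. The largest ratios of the mean of DKO 1 and DKO 2 over that of DKO 3 and DKO 4 were 2.39 for Pdk1, 2.14 for Slc16a3, 1.95 for Eno1 and 1.73 for Pfkl. Both lay below the other 6 in 4 members, Slc2a1, Hk2, Slc16a1 and Pdk4 (11.8%, against 10.5% of all genes). DKO 3 and DKO 4 were the highest pair in Pcx and Mpc2 (5.88%, against 5.19% of all genes), and the lowest pair in Pfkfb2, Pgk1, Ldha and Slc16a3 (11.8%, against 4.06%). This split was chosen after the values were seen and is a description. The letters ACGTG were found in a promoter window of 7 of the 15 members and of 12 of the 18 others with a window.

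**Figure D4:**
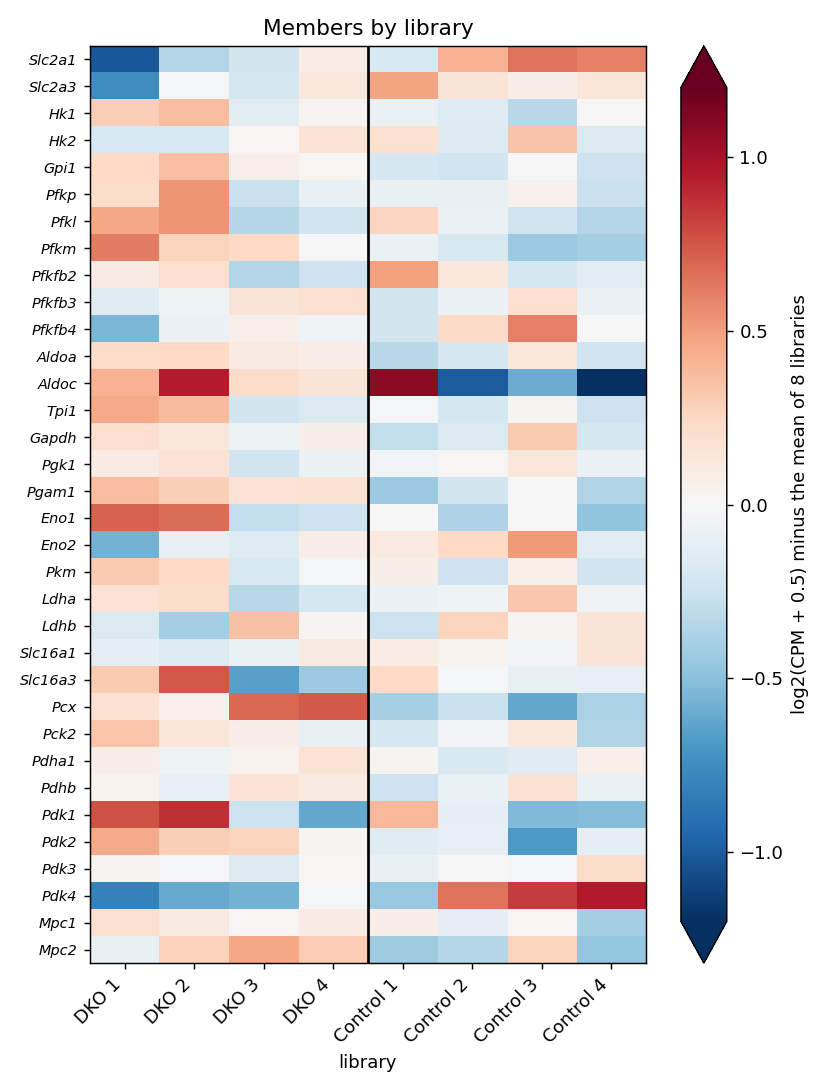
Members (rows, pathway order) in 8 libraries, DKO left of the line and Control right, as log2(CPM + 0.5) minus the mean over the 8 libraries (colour; values beyond the ends of the bar take the end colours). DKO 1 and DKO 2 are red in most glycolytic rows, and Pdk4 and Slc2a1 are blue in them.

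The 15 members were picked as high in DKO 1 and DKO 2, so any trait of these libraries goes with them by selection. DKO 1 and DKO 2 had the high share of Rn18s-rs5 and the low sums of cumulus and oocyte markers given above, and the part of these in the pattern was not tested. Within the later-numbered libraries, DKO 3 and DKO 4 against Controls 2 to 4, the log2 fold changes were 0.38 ± 0.15 for Pgam1, 0.50 ± 0.15 for Pfkm, 0.46 ± 0.21 for Pdk2 and 0.22 ± 0.15 for Gpi1. They were 0.20 ± 0.17 for Aldoa, 0.13 ± 0.15 for Hk1, 0.56 ± 0.23 for Mpc2 and -0.60 ± 0.15 for Slc2a1 there. Of the members with an unadjusted p under 0.05, each kept its direction in these 5 libraries. The 5 are among the libraries that gave those p values, so the kept direction is no independent check. Red blood cell markers (5 genes) summed to 186, 452, 607 and 804 CPM in DKO 1 to DKO 4 and to 266 to 584 CPM in Controls. In DKO 1 and DKO 2 this sum was nearly all Hba-a1, Hba-a2 and Alas2, while Hbb-bs and Hbb-bt were near 0 there. The sums of DKO 1 and DKO 2 are therefore not comparable with those of the other libraries. The fold changes of Hba-a1, Hba-a2 and Alas2, DKO over Control, were 1.75, 1.78 and 1.69 (adjusted p = 0.158, 0.145 and 0.184). The part of these genes in the pattern was not tested. Skeletal muscle markers (5 genes) summed to 3.60 to 4.94 CPM in DKO ovaries and 3.47 to 5.80 CPM in Controls.

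**Figure D5:**
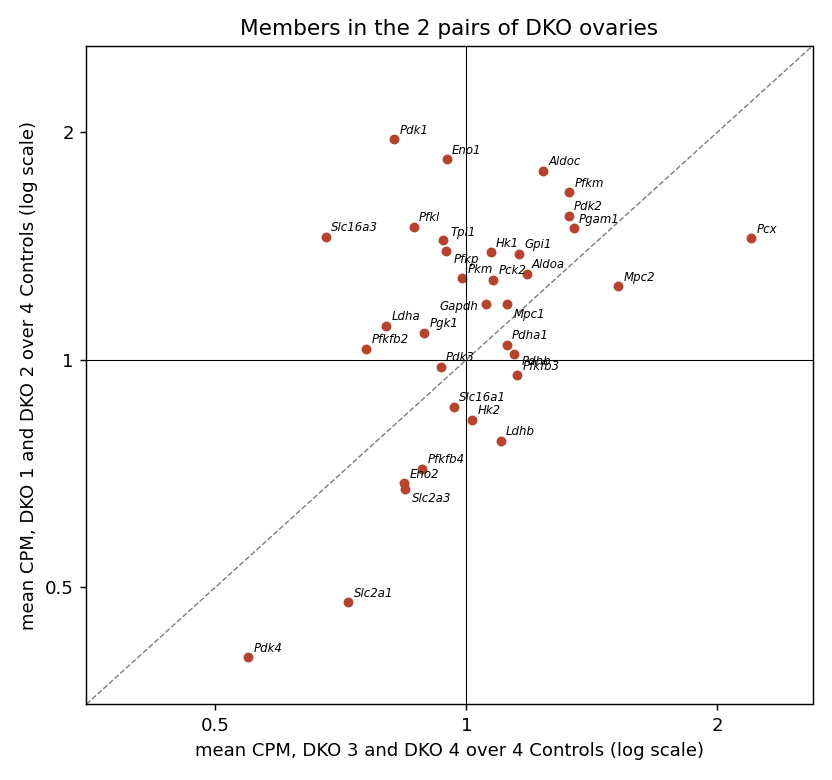
Mean CPM of each member in DKO 1 and DKO 2 (vertical) and in DKO 3 and DKO 4 (horizontal), each over the mean of the 4 Controls, on log axes; the dashed line marks equality. Pdk1, Eno1 and Slc16a3 lie far above the line, Pcx right of it, and Pdk4 and Slc2a1 below 1 on both axes.

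Beyond the 34 members, 75 other genes of glucose metabolism were examined, of which 62 could be tested. Untested genes such as Slc2a4, Eno3, Slc25a1 and Slc25a11 have exons listed on a second sequence of the assembly, as Hk2 and Eno1 do. Their low counts are therefore not read as a lack of expression. In DKO ovaries 1 of the 62 tested genes rose and 1 fell (1.61% each, against 0.759% of all genes higher and 0.498% lower). Ldhd, the mitochondrial enzyme gene for D-lactate, fell to 12.3, 23.9, 21.7 and 24.5 CPM in DKO 1 to DKO 4, against 63.9, 110, 138 and 85.7 CPM in Control 1 to Control 4 (log2 fold change -2.27 ± 0.28, adjusted p = 0.0144). Its call ended without DKO 3 or Control 2 (adjusted p = 0.0590 and 0.0723). Gpd1l, related to glycerol-3-phosphate dehydrogenase, rose to 77.4, 76.7, 76.5 and 73.3 CPM in DKO ovaries, against 59.3, 47.3, 45.8 and 56.4 CPM in Controls (0.54 ± 0.11, adjusted p = 0.0451). Its call held in 2 of 8 fits with 1 library left out, those without Control 1 (adjusted p = 0.0301) and Control 3 (0.0393), and ended without each of the other 6 libraries (0.0699 to 0.183), with scaling to library size only (0.0568) and among the later-numbered libraries alone (0.113). The alanine aminotransferase gene Gpt2, which links pyruvate with alanine, averaged 40.9 ± 12.3 CPM in DKO ovaries and 79.5 ± 17.1 CPM in Controls (-0.96 ± 0.22, adjusted p = 0.0782). H6pd, whose enzyme oxidises glucose 6-phosphate in the endoplasmic reticulum, averaged 55.3 ± 7.93 and 87.7 ± 17.1 CPM (-0.66 ± 0.16, adjusted p = 0.0830). The groups did not overlap in either gene. The exons of H6pd are also listed on a second sequence of the assembly, so its level may be low. The median over the 62 genes was 0.03.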

How the data were processed

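Libraries were made from whole-ovary RNA with a stranded kit for messenger RNA, per the labels' protocols. The authors deposited raw counts per gene, 1 table per library, made with featureCounts 1.5.2 on RefSeq exons of GRCm38.p5 with the strand setting 2, per the file headers. The submitters' processing notes also list Trimmomatic 0.36 and 0.33 and STAR 2.4.2a. Reads that match several places were given no option in the recorded command. Symbols came from RefSeq GRCm38.p6 and matched 96.9% of IDs; coordinates are those of the count tables.

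Groups were read from the sample descriptions. Genes were kept by filterByExpr (16870), scaled by TMM factors (0.943 to 1.06) and tested with edgeR 4.0.16 (quasi-likelihood F-test, robust, two-sided, Benjamini-Hochberg adjustment over all genes tested) in R 4.3.3. DESeq2 1.42.0 and limma 3.58.1 served as alternatives, as did other scalings, filters, blocks and leaving out libraries. The SE is the log2 fold change divided by the square root of F. FPKM used the exon length in the tables. Libraries of a group differed beyond sampling noise (reduced chi-square 25.0 to 143), and p values measure the spread between the samples of 4 mice per group. On data simulated for DKO against Control (16602 to 16628 genes tested) the test recovered 22.0% of genes changed 1.5-fold and 69.3% changed 2-fold, with 5.90% false calls. The simulated counts varied independently between libraries around a common mean per gene, and changes were planted only in genes above a low CPM floor. They lacked the split between the pairs of DKO libraries, so these rates may not hold for the real data.

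Members and gene lists were chosen with earlier results of these data known. Every member is accounted for. Library values are given for members that are called, have an unadjusted p under 0.05 or do not overlap between groups, for 14 members named by rule, and for some others chosen after their values were seen. Of the other pathway genes, called ones and the 4 with the smallest p are named.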

Additional observations from a re-analysis of the deposited data

Results flagged for a closer look

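Among 68 pairs of a member and a group, 5 held a library far from the other 3 of its group, where chance gives about 1 in 20. All 5 were Controls. In Control 3, Ldha was at 700.4 CPM against 533 to 542 CPM in the other Controls, Gapdh at 876 CPM against 575 to 624 CPM, and Mpc2 at 43.6 CPM against 26.0 to 28.3 CPM. Pdk2 was low in Control 3, at 17.0 CPM against 25.0 to 25.8 CPM. Aldoc was at 33.5 CPM in Control 1 and at 6.41 to 10.2 CPM in the other Controls.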

How the results depend on the processing

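Of 680 fold changes of members refitted in the alternative analyses, 627 kept direction and side of the threshold, 23 became called, 8 lost the call and 22 changed sign; 21 members had 1 sign in all 21 fits. DESeq2 called 1107 genes, 6 members and 7 other pathway genes, and limma-voom with quality weights 1651, 10 and 11. With the later-numbered libraries as a block, 526 genes and 4 other pathway genes were called, and among those libraries alone 169 of 17206 genes, 2 members and 1 other pathway gene, with a member median of 0.0413. Library size scaling called 1 other pathway gene. Leaving out 1 library gave 2 to 506 genes, 0 to 2 members and 0 to 5 other pathway genes. Without DKO 1 and DKO 2, an analysis added after seeing the data, 64 genes and 1 other pathway gene were called, and the median was 0.0187. Deviations of same-numbered libraries correlated at r = 0.170, -0.393, 0.342 and 0.544, and as not every pair was above 0.1 the numbers were not taken to pair them. The replicate block called 743 genes, 4 members (Pfkm, Pgam1, Pdk4 and Slc2a1, without Pcx) and 4 other pathway genes. DKO 1, DKO 3 and DKO 4 correlated best with the Control of their number, but DKO 2 with Control 1 (r = 0.679). DKO 2 and Control 1 were the libraries high in the oviduct marker Ovgp1, at 724 and 1150 CPM. Its part in these correlations was not tested.

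Signs changed for Slc16a3 with limma-voom (-0.0162), quality weights (-0.0883), the replicate block (-0.0135), the run block (-0.200), the later-numbered libraries alone (-0.457) and without DKO 1 and DKO 2 (-0.543), for Hk2 with quality weights (0.0552), and for Ldhb with the run block (0.0150). Among the later-numbered libraries alone they changed for Hk2 (0.0835), Ldhb (0.0601), Pdk1 (-0.0303), Pfkl (-0.0556), Pfkp (-0.0568) and Tpi1 (-0.0408). Without DKO 1 and DKO 2 they changed for Hk2 (0.0383), Ldhb (0.154), Pdk1 (-0.272), Pfkl (-0.192), Pfkp (-0.0591), Pkm (-0.000762), Tpi1 (-0.0726) and Eno1 (-0.0630). Leaving out 1 library, they changed within -0.146 to 0.0388 for Ldha, -0.228 to 0.0303 for Ldhb, -0.0888 to 0.000442 for Pdk3, -0.249 to 0.0177 for Pfkfb2, -0.0695 to 0.0640 for Pgk1 and -0.202 to 0.284 for Slc16a3. The cause was not tested.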
